A study of Saccharomyces cerevisiae with 41 samples.

Results

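The transcripts described here were 508 rows of the deposited feature set whose names hold a chromosome number, the letter F or R, a hyphen and a serial number, and whose spans overlapped no open reading frame (ORF) row on either strand. They were chosen by name and position alone, with no measured value, from 1653 rows with names of this form and 11587 rows in all. The other 1145 rows with such names overlapped an ORF. Budding yeast, given in the labels as background BY4741, had been grown at 25 °C and moved to 37 °C for 90 min in every group, controls included. The mutants were csl4-ph, dis3-1, an rrp6 deletion, enp1-1 and srm1-ts. RNA selected with oligo d(T) was measured in 3 csl4-ph, 2 enp1-1, 2 srm1-ts and 3 control libraries. RNA depleted of ribosomal RNA (rRNA) was measured in 3 csl4-ph, 2 dis3-1, 2 rrp6 deletion, 2 enp1-1, 2 srm1-ts and 2 control libraries. Single 3′ tags were counted in csl4-ph, enp1-1 and control cells, each carrying a Pab1-GFP vector or an empty vector, with 3 libraries for each of the 6 combinations.

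The RNA exosome is a complex that degrades and trims RNA from its 3′ end. Csl4 is a subunit of its cap, Dis3 (Rrp44) its catalytic nuclease, and Rrp6 a further nuclease found in the nucleus. Much of the yeast genome between genes is transcribed, and many such transcripts are ended by the Nrd1-Nab3-Sen1 complex and then degraded by the nuclear exosome. Enp1 is needed to process the small ribosomal subunit, and Srm1 (Prp20) loads the Ran GTPase Gsp1 with GTP, on which nuclear transport depends. The csl4-ph, enp1-1 and srm1-ts strains thus compare a lesion in the exosome itself with lesions in ribosome assembly and nuclear transport.

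The 508 transcripts lay on 16 chromosomes, 255 with F and 253 with R in the name, a letter whose meaning is not given in the sources used here. Their spans ran from 252 to 3680 bases with a median of 510.5 bases. The nearest ORF was a median of 227.5 bases away. By the direction of the flanking ORFs, 244 lay in tandem gaps, 202 in divergent gaps and 59 in convergent gaps, and 3 lay beyond the last ORF of a chromosome. Rows of other transcript sets covered many of the same bases: 111 overlapped a row named CUT, 245 a row named NUT, 210 a row named ST and 149 another F/R row. Only 133 overlapped no other row, and the transcripts named below are taken from these unless said otherwise, since reads over shared bases can be split between rows. Long terminal repeats (LTRs) annotated by RefSeq overlapped 78 of the 508, retrotransposons 13, protein-coding genes 8 and annotated noncoding genes 12. A search of the genome found at least 1 further copy of 26 of them, at 90% identity over 80% of the length. In all 104 overlapped an LTR, a retrotransposon or a RefSeq protein-coding gene, or had a further copy, and are called repeat-linked here. The other 404 had none of these and are called repeat-free, 12F-188 in the rDNA array among them. The median G+C content was 36.93%, against 39.67% for ORF rows and 34.75% for the 346 CUT rows that overlapped no ORF.

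The first 300 bases are printed for 6 transcripts named in the later results. These are 1R-80, with a large relative rise in csl4-ph, and 9F-57, 2R-61 and 13F-390, which were higher in every mutant. The others are 12F-188, with the largest rise in rRNA-depleted RNA among transcripts that overlap no other row, and 1R-2, which fell in srm1-ts. The sequences are those of the + strand of the RefSeq R64 assembly, 5′ to 3′, from the left end of each span, whatever the strand of the RNA. Capitals mark TCTTG and GTAG, the core letters known for Nab3 and Nrd1, and their complements CAAGA and CTAC. They lie at chrI:181503-181802, chrIX:139053-139352, chrII:165316-165615, chrXIII:906263-906562, chrXII:460075-460374 and chrI:5236-5535, in the order given.
1R-80: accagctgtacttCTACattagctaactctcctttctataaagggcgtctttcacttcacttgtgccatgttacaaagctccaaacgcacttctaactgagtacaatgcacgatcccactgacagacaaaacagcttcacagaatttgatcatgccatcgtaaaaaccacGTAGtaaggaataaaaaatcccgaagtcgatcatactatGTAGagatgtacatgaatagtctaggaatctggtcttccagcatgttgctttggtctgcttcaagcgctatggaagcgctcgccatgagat
9F-57: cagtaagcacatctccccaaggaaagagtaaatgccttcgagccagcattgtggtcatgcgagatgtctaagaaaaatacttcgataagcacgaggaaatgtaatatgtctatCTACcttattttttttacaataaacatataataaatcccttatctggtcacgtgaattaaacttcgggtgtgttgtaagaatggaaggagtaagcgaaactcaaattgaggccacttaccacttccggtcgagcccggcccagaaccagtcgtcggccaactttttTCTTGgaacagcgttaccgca
2R-61: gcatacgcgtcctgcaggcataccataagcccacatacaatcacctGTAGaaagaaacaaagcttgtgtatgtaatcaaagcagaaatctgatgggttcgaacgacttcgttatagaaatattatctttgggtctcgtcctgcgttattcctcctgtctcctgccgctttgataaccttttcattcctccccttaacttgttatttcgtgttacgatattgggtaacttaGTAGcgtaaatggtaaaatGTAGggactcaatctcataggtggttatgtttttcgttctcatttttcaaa
13F-390: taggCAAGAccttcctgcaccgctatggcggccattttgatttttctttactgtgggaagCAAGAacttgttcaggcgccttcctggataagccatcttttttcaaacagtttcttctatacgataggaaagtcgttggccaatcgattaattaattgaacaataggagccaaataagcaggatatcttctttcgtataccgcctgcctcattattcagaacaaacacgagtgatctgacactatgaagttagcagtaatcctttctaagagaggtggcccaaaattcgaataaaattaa
12F-188: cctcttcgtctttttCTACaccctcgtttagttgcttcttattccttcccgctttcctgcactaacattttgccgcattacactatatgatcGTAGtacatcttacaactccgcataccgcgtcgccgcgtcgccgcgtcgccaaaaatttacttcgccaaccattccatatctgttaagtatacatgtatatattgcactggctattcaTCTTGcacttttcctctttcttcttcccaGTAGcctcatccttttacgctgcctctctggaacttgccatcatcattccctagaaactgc
1R-2: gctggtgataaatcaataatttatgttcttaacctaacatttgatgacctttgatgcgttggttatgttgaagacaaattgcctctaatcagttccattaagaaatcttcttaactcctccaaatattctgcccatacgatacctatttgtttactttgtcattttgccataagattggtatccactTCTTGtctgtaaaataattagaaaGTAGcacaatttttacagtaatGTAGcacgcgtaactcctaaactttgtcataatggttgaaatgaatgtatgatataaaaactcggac

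Such short words are common: TCTTG or its complement was found in 63.2% and GTAG or its complement in 79.7% of all 40229 windows of 300 bases in the genome. Over their full spans the 508 transcripts held 2.94 TCTTG words per kb on both strands, against 4.68 in CUT rows that overlapped no ORF and 3.73 in ORF rows. They held 5.69 GTAG words per kb, against 6.48 in those CUT rows and 5.58 in ORF rows. For GTAA, another Nrd1 word, the values were 10.7, against 11.9 and 8.13. Of TCTTG words on both strands, the printed 1R-80 and 2R-61 stretches held 0, 9F-57, 12F-188 and 1R-2 held 1 each and 13F-390 held 2. Of GTAG words, 1R-80, 2R-61 and 12F-188 held 3 each, 1R-2 held 2, 9F-57 held 1 and 13F-390 held 0. A match is a description of the letters and not a site.

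Library totals were 15589670 to 33251600 estimated counts in oligo d(T)-selected RNA, 12795066 to 32142495 in rRNA-depleted RNA and 1458382 to 3027707 in 3′ tags. Rows of rRNA took 57.4% to 78.4% of the 3′ tags. A floor of 3 counts in a library corresponded to 0.0847 to 0.264 CPM (counts per 1e6, library sizes TMM-scaled) in oligo d(T)-selected RNA, 0.0866 to 0.3135 in rRNA-depleted RNA and 1.006 to 1.945 in 3′ tags, for counting error only. The labels of csl4-ph rRNA-depleted replicate 1 disagree on its selection, and its level of the repeat transcript 4F-381, 7502 CPM, lay with the other csl4-ph rRNA-depleted libraries, at 7637 and 8228 CPM, and not with the csl4-ph oligo d(T) libraries, at 1317 to 1334 CPM. RRP6 itself was listed at 39.94 and 38.14 CPM in rRNA-depleted RNA of the rrp6 deletion, against 189.7 and 179.7 CPM in control. The strains also differed in markers that the mutations do not name. MF(ALPHA)1, an alpha-cell pheromone gene, stood at 221.9 to 226.8 CPM in csl4-ph, under 1 CPM in dis3-1, the rrp6 deletion and enp1-1, at 5.525 and 5.188 CPM in srm1-ts, and at 667.8 and 692 CPM in control. STE2, an a-cell receptor gene, stood at 350.6 and 353.9 CPM in dis3-1, 421.1 and 430.8 CPM in enp1-1, 58.38 and 66.92 CPM in srm1-ts, 13.3 to 15.58 CPM in csl4-ph, 8.358 and 9.058 CPM in the rrp6 deletion, and 7.435 and 7.314 CPM in control. LYS2 was at 0 in csl4-ph, at 389 to 683.3 CPM in the other 4 mutants and at 0.7691 and 0.3135 CPM in control. MET17 averaged 91.17 CPM in csl4-ph and 538.9 CPM in control rRNA-depleted RNA, and was under 1 CPM in the other 4 mutants. The labels give the same background for all groups, yet these markers differed between them. For the 4 mutants other than csl4-ph, mutation and strain thus cannot be told apart in comparisons with control. The part of these strain differences in the results below was not tested.

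As a share of all counts outside rRNA rows, the 508 transcripts were a small fraction, above control in csl4-ph, dis3-1 and enp1-1. Of oligo d(T)-selected RNA they made up 1.01% ± 0.0706 in csl4-ph (SD, n = 3) and 0.831% ± 0.0187 in enp1-1 (SD, n = 2), against 0.311% ± 0.0118 in control (SD, n = 3). In srm1-ts the share was 0.321% ± 0.00573 (SD, n = 2), with libraries at 0.3172% and 0.3253%, against 0.2988% to 0.3224% in the same controls. In rRNA-depleted RNA they took 2.03% ± 0.0743 in csl4-ph (SD, n = 3), 1.93% ± 0.0304 in dis3-1 and 1.82% ± 0.0792 in enp1-1, but 0.546% ± 0.0169 in the rrp6 deletion and 0.818% ± 0.0315 in srm1-ts, against 1.17% ± 0.0205 in control (SD, n = 2 each). Apart from srm1-ts in oligo d(T)-selected RNA, these differences exceeded the spread between replicates, and none was tested. Unlike CPM, these shares are not TMM-scaled. In rRNA-depleted RNA the TMM factors were 1.078 to 1.157 in csl4-ph, dis3-1 and enp1-1, against 0.7366 and 0.7428 in control. Shares of these mutants thus stand higher against control than CPM do. The share of 4F-381 was 0.8737% to 0.9642% in csl4-ph, against 0.6769% and 0.6705% in control, while its CPM, given below, was lower than in control. A few repeat transcripts carried most of these rRNA-depleted totals. Without the 104 repeat-linked transcripts the shares in rRNA-depleted RNA were 0.467% in csl4-ph, 0.41% in dis3-1, 0.224% in the rrp6 deletion, 0.267% in enp1-1 and 0.31% in srm1-ts, and 0.0922% in control, so that every mutant then lay above control. In oligo d(T)-selected RNA the repeat-free shares were 0.518% in csl4-ph, 0.34% in enp1-1 and 0.221% in srm1-ts, against 0.0905% in control. The single transcript 12F-188 carried 0.121% of the csl4-ph counts in oligo d(T)-selected RNA and 0.0861% of the dis3-1 counts in rRNA-depleted RNA. With it left out as well, the repeat-free shares in rRNA-depleted RNA were 0.433% in csl4-ph and 0.324% in dis3-1, against 0.0915% in control. Fewer cells with a transcript and less of it per cell cannot be told apart in these bulk samples.

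**Figure D1:**
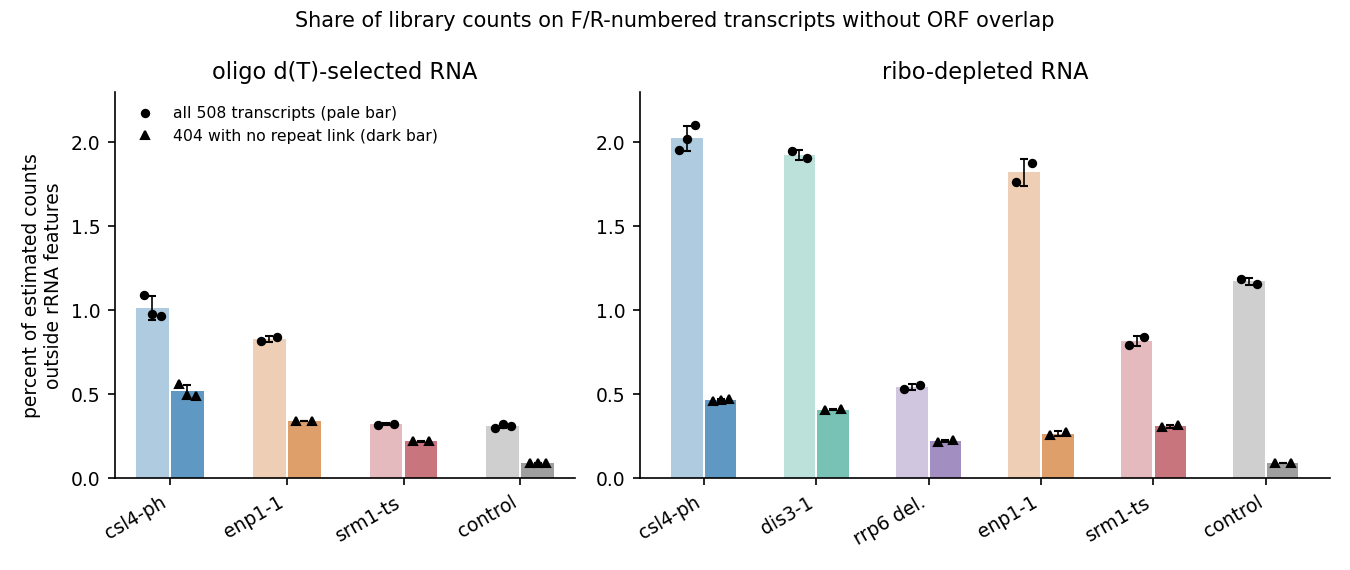
Percent of estimated counts outside rRNA rows that fell on the transcripts, by group, in oligo d(T)-selected and rRNA-depleted RNA, without TMM scaling. Pale bars and circles are group means and libraries for all 508 transcripts, dark bars and triangles those for the 404 with no repeat link. In rRNA-depleted RNA the dark bar was 0.467% in csl4-ph and 0.0922% in control.

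The first question was how many of these transcripts differed between each mutant and the control. In csl4-ph most tested transcripts were higher than in control. Of 424 tested in oligo d(T)-selected RNA, 292 rose and 17 fell at an adjusted p under 0.05, while over all features tested 38.2% were called higher and 39.6% lower. In rRNA-depleted RNA 271 of 434 rose and 28 fell, against 35.4% higher and 41.1% lower over all features. The median log2 fold change of the tested transcripts was 1.60 in oligo d(T)-selected and 1.67 in rRNA-depleted RNA, and 1.56 and 1.55 with transcripts absent from 1 group set at the floor. Over all features these medians were 0.00 and -0.03. The filter on low counts keeps a transcript that is high in only 1 group, so these counts describe the tested transcripts and not all 508.

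The other exosome mutants gave rises at a lower median. In dis3-1, 254 rose and 19 fell in rRNA-depleted RNA, beside 30% and 38.8% over all features, with a median log2 fold change of 1.29. In the rrp6 deletion, 208 rose and 36 fell, beside 30.5% and 35.6%, with a median of 0.90. The mutants outside the exosome also had more rises than falls. In enp1-1, 242 rose and 32 fell in oligo d(T)-selected RNA, beside 37.8% and 38.6% over all features, and 217 rose and 39 fell in rRNA-depleted RNA, beside 34.8% and 37%. In srm1-ts, 177 of 424 rose and 98 fell in oligo d(T)-selected RNA, beside 39.3% and 37.7%. Of 434 in rRNA-depleted RNA, 210 rose and 83 fell, beside 39.4% and 37%. The share called higher in srm1-ts was thus near that of all features in oligo d(T)-selected RNA and above it in rRNA-depleted RNA. The share of all features called lower in srm1-ts, 37.7% and 37%, exceeded the share of these transcripts, and the median log2 fold changes were 0.54 and 0.96. All comparisons with control within a table share the same control libraries. Scaling on ORF rows alone put the median log2 fold change of all features at 0.15 to 0.41 in the comparisons with control in these tables. Of all features called, the share called higher was then 61.8% in csl4-ph oligo d(T)-selected RNA, against 49.1% under the scaling used here, and in rRNA-depleted RNA 63.9% against 46.3% in csl4-ph, 65.9% against 43.6% in dis3-1, 64.9% against 46.2% in the rrp6 deletion, 61.3% against 48.5% in enp1-1 and 62.5% against 51.6% in srm1-ts.

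**Figure D2:**
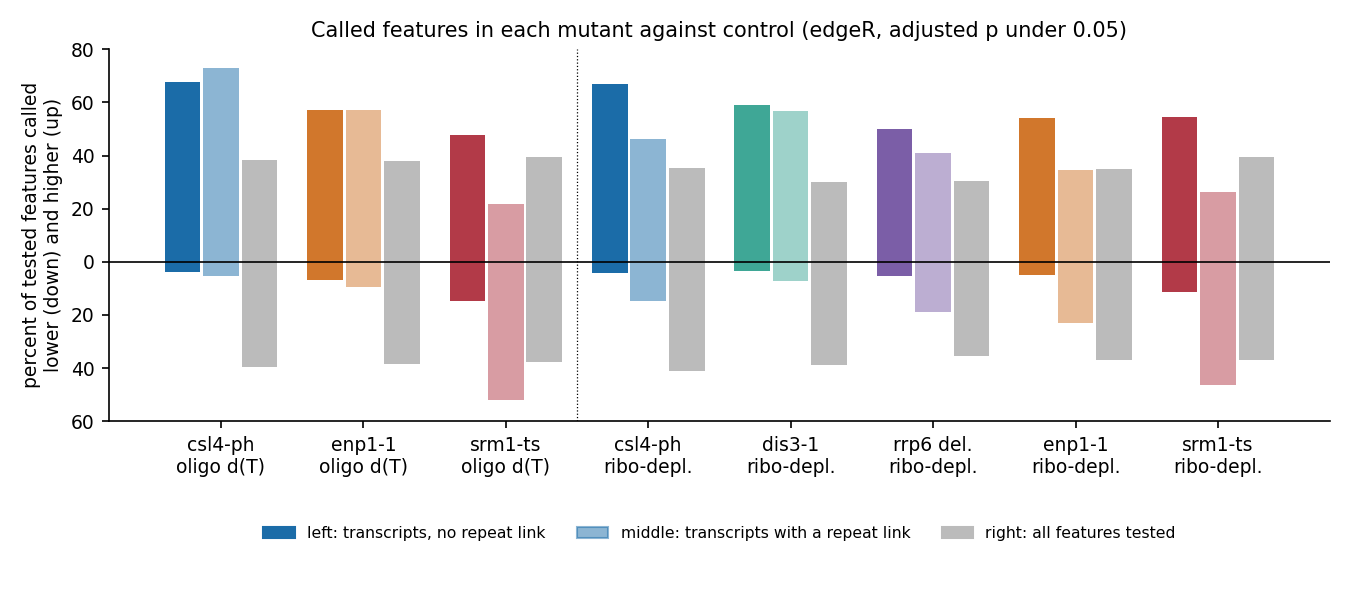
Percent of tested features called higher (upward) and lower (downward) in each mutant against control. The left bar of each set is transcripts with no repeat link, the middle bar those with a repeat link, and the right bar all features tested. In srm1-ts the repeat-linked bars reach further down than up, with 21 higher and 50 lower in oligo d(T)-selected RNA.

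Set beside other classes in csl4-ph rRNA-depleted RNA, the median log2 fold change of 1.67 lay between 3.48 for CUT rows that overlapped no ORF (180 higher and 7 lower of 259) and 1.30 for ST rows that overlapped no ORF (146 higher and 26 lower of 277). It was 0.59 for the F/R rows that overlapped an ORF and -0.45 for ORFs. Where the transcripts themselves overlapped a CUT row, the median was 3.22, with 67 higher and 4 lower of 89, and among the 133 that overlapped no other row it was 1.14, with 87 higher and 14 lower. Over all features tested in this comparison, 35.4% were called higher and 41.1% lower. Transcripts in divergent gaps had a median of 2.23, those in tandem gaps 1.50 and those in convergent gaps 1.05. The F and R names gave medians of 1.77 and 1.49. These are descriptions of overlapping groups, and no difference between them was tested.

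Among the 133 that overlapped no other row, 34 were called higher in each mutant and each selection. 9F-57, 2R-61 and 13F-390 were among these 34. In rRNA-depleted RNA, 8 of the 133 were called higher in csl4-ph, dis3-1 and the rrp6 deletion but not in enp1-1 or srm1-ts. Over all the transcripts these counts were 86 and 19. 13F-390, between YMR316C-A and YMR316C-B on chromosome XIII, stood at 48.16, 48.19 and 49.17 CPM in csl4-ph rRNA-depleted RNA, 27.53 and 31.38 CPM in dis3-1, 20.12 and 22.06 CPM in the rrp6 deletion, 26.04 and 27.78 CPM in enp1-1, 40.61 and 41.27 CPM in srm1-ts, and 2.905 and 2.508 CPM in control. Every mutant library lay far above both controls, with csl4-ph and srm1-ts the highest. Its log2 fold changes were 4.15 ± 0.0983 in csl4-ph (SE, adjusted p = 3.16e-10) and 2.95 ± 0.103 in the rrp6 deletion (SE, adjusted p = 1.24e-08). In the 3′ tags of empty-vector cells it stood at 26.8, 23.65 and 28.34 CPM in csl4-ph and 35.77, 27.07 and 31.8 CPM in enp1-1, against 4.476, 5.522 and 5.616 CPM in control.

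9F-57, on chromosome IX, stood at 8.217, 7.393 and 8.8 CPM in csl4-ph, 3.082 and 2.754 CPM in dis3-1, 1.373 and 1.294 CPM in the rrp6 deletion, 6.466 and 6.556 CPM in enp1-1, 5.093 and 4.334 CPM in srm1-ts, and 0.1709 and 0.5224 CPM in control, the controls being near the floor. The groups did not overlap, and enp1-1 lay above both nuclease mutants: the log2 fold change of dis3-1 over enp1-1 was -1.16 ± 0.322 (SE, adjusted p = 0.0131). Over control its log2 fold changes were 4.57 ± 0.385 in csl4-ph (adjusted p = 2.72e-06) and 4.24 ± 0.392 in enp1-1 (adjusted p = 6.71e-06). 8R-216, between FMO1 and ROF1, likewise had log2 fold changes of 4.25 in csl4-ph and 4.38 in enp1-1, and 12R-244, 211 bases from the mitochondrial chaperonin gene HSP60, had 3.03 and 3.05.

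1R-80, between DFP1 and UIP3 on chromosome I, was high in the exosome mutants. It stood at 10.54, 11.59 and 9.576 CPM in csl4-ph rRNA-depleted RNA, 4.731 and 6.02 CPM in dis3-1, 3.284 and 3.389 CPM in the rrp6 deletion, 1.617 and 1.521 CPM in enp1-1, 0.466 and 0.7881 CPM in srm1-ts, and 0.5982 and 0.1045 CPM in control. The exosome mutants were the highest and srm1-ts overlapped control. The log2 fold changes over control were 4.84 ± 0.553 in csl4-ph (SE, adjusted p = 2.62e-05), 3.87 in dis3-1, 3.18 in the rrp6 deletion and 2.09 in enp1-1, and 0.78 in srm1-ts (adjusted p = 0.217). With oligo d(T) selection it stood at 0.14 and 0.06689 CPM in srm1-ts, against 0.586, 0.332 and 0.6161 CPM in control, and fell (log2 fold change -2.25, adjusted p = 0.00133), with the srm1-ts libraries at or near the floor. 2F-291, between SPO23 and ARO4, a gene of aromatic amino acid synthesis, stood at 14.52 to 15.15 CPM in csl4-ph, 15.34 and 17.03 CPM in dis3-1, 12.66 and 12.45 CPM in the rrp6 deletion, 7.274 and 6.488 CPM in enp1-1, 5.459 and 5.779 CPM in srm1-ts, and 1.282 and 1.045 CPM in control, with a log2 fold change of 1.23 in dis3-1 over enp1-1 (adjusted p = 2.55e-05). The groups of exosome mutants lay above the other mutants, and all lay above control. 15F-129, which lies between TSR4 and DIS3 itself, stood at 3.277, 3.776 and 2.743 CPM in csl4-ph, 5.806 and 5.827 CPM in dis3-1, 6.448 and 7.332 CPM in the rrp6 deletion, 1.068 and 1.318 CPM in enp1-1, 0.2663 and 0.3284 CPM in srm1-ts, and 0.7691 and 0.6269 CPM in control. It rose in all 3 exosome mutants, did not pass the test in enp1-1 (log2 fold change 0.76, adjusted p = 0.0712), and fell in srm1-ts (log2 fold change -1.22, adjusted p = 0.0227).

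Among transcripts that overlap no other row the largest rise over control in rRNA-depleted RNA was that of 12F-188. 12F-188 (chrXII:460075-460602) lies in the annotated rDNA spacer NTS1-2, 278 bases from the 5S rRNA gene RDN5-1. The rDNA is a tandem array of which the assembly holds only a few units, so its count of 0 further copies holds for the assembly alone. It stood at 287.9, 296.9 and 290.6 CPM in csl4-ph rRNA-depleted RNA, 746.9 and 796.7 CPM in dis3-1, 138.5 and 162.7 CPM in the rrp6 deletion, 7.881 and 8.414 CPM in enp1-1, 4.028 and 4.597 CPM in srm1-ts, and 7.862 and 8.464 CPM in control. All exosome libraries were far above control, enp1-1 lay within the control range, and srm1-ts lay below it. The log2 fold changes over control were 5.16 ± 0.102 in csl4-ph, 6.57 ± 0.102 in dis3-1 and 4.21 ± 0.11 in the rrp6 deletion (SE, adjusted p = 1.11e-10, 9.63e-11 and 2.15e-09), and -0.91 in srm1-ts (adjusted p = 0.00101). Set directly against enp1-1, dis3-1 was higher by 6.57 and the rrp6 deletion by 4.21 on the log2 scale. In oligo d(T)-selected RNA it stood at 1114, 810.1 and 799.6 CPM in csl4-ph, 20.7 and 21.01 CPM in enp1-1, 7.314 and 6.254 CPM in srm1-ts, and 13.04, 13.28 and 13.55 CPM in control. The share of counts on rRNA rows also moved, to 5.82% to 6.37% in csl4-ph oligo d(T) libraries, against 2.04% to 4.24% in control, and to 2.22% to 2.29% in dis3-1 rRNA-depleted libraries, against 0.588% to 0.683% in control. It was 1.97% to 2.6% in csl4-ph, 1.01% in both rrp6 deletion libraries, 0.91% to 0.963% in enp1-1 and 1.61% to 7.63% in srm1-ts rRNA-depleted libraries, and 2.84% to 3.93% in enp1-1 and 1.74% to 1.83% in srm1-ts oligo d(T) libraries. The highest of these rRNA-depleted shares was thus in 1 library of srm1-ts, where 12F-188 was below control. The part of rRNA carry-over in the rise of 12F-188 was not tested.

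**Figure D3:**
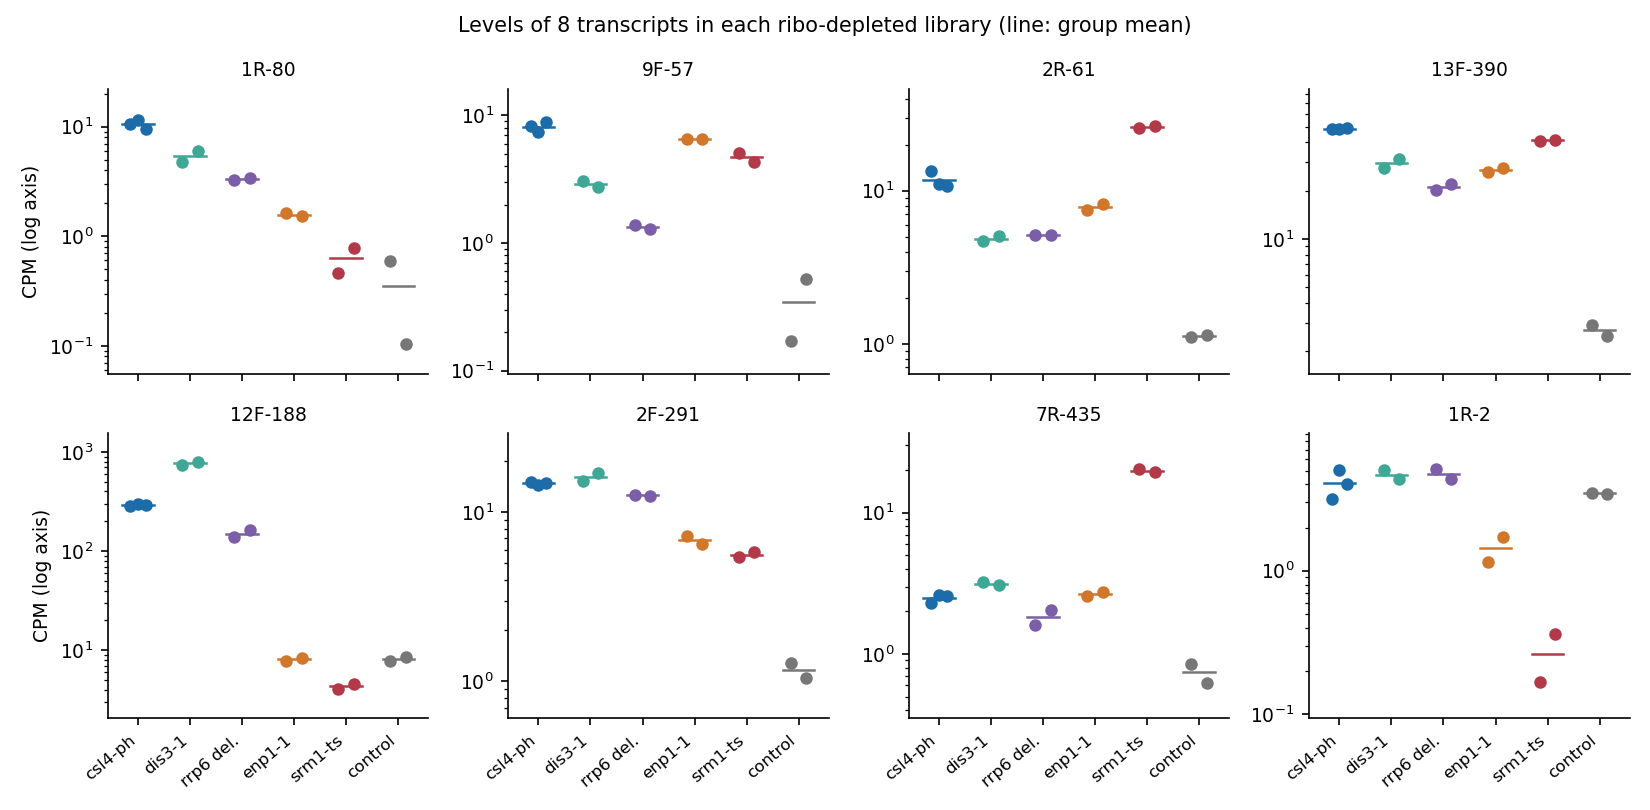
CPM on a log axis of 8 transcripts in rRNA-depleted RNA, by group, 1 point per library, with group means as lines. 12F-188 stood at 746.9 and 796.7 CPM in dis3-1 but at 7.881 and 8.414 CPM in enp1-1, against 7.862 and 8.464 CPM in control, while 13F-390 was above control in all 5 mutants.

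Some transcripts were highest in srm1-ts. 2R-61, 249 bases from YBL029W on chromosome II, stood at 25.56 and 26.3 CPM in srm1-ts rRNA-depleted RNA, against 1.111 and 1.149 CPM in control, with 4.659 to 13.44 CPM in the other mutants. Its log2 fold changes in srm1-ts were 4.51 ± 0.161 in rRNA-depleted and 4.31 ± 0.175 in oligo d(T)-selected RNA (SE, adjusted p = 4.58e-09 and 5.78e-08). 15F-116, between the ribosomal protein genes RPS15 and RPP2A, stood at 17.18 and 15.89 CPM in srm1-ts, against 1.453 and 0.7314 CPM in control. In dis3-1 and the rrp6 deletion it did not pass the test, with log2 fold changes of 0.70 and 0.65 (adjusted p = 0.0749 and 0.101). 7R-435, 82 bases from BNS1, stood at 20.5 and 19.24 CPM in srm1-ts, 2.28 to 2.606 CPM in csl4-ph, and 0.8545 and 0.6269 CPM in control. Its log2 fold change of 4.73 in srm1-ts was larger than the 1.73 of csl4-ph, although srm1-ts and csl4-ph were not set against each other in a test. 2F-93, a repeat-linked transcript beside the pyrophosphatase gene IPP1 that overlaps an LTR, rose the most in srm1-ts oligo d(T)-selected RNA, with 59.04 and 62.37 CPM in srm1-ts, against 0.9523, 1.328 and 0.5281 CPM in control (log2 fold change 6.0 ± 0.246, adjusted p = 6.07e-08).

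Falls were fewer and smaller. 1R-2, in the gap beside SEO1 near the left end of chromosome I, stood at 0.1664 and 0.3612 CPM in srm1-ts rRNA-depleted RNA, against 3.504 and 3.448 CPM in control (log2 fold change -3.69 ± 0.425, adjusted p = 2.84e-05), the srm1-ts libraries being near the floor. In csl4-ph it stood at 3.182, 5.053 and 4.037 CPM, overlapping control, and did not pass the test there (log2 fold change 0.23, adjusted p = 0.556). In oligo d(T)-selected RNA of enp1-1 its fall of -1.13 on the log2 scale (adjusted p = 0.00728) rested on both libraries: without replicate 2 it was -1.0 (adjusted p = 0.056). 12R-250, between DCS1 and CMG1, stood at 6.127, 5.744 and 6.367 CPM in csl4-ph rRNA-depleted RNA, against 19.14 and 24.76 CPM in control, and fell by 1.85 on the log2 scale (adjusted p = 2.91e-06). In oligo d(T)-selected RNA the same transcript stood at 3.132 to 4.628 CPM in csl4-ph, against 5.193 to 5.567 CPM in control, and did not pass the test (adjusted p = 0.0828).

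Repeat-linked and repeat-free transcripts differed most in srm1-ts. Of the 52 repeat-linked transcripts that overlapped no other row, 12 rose and 31 fell in srm1-ts rRNA-depleted RNA, with a median log2 fold change of -1.02, while of the 81 with no repeat link 57 rose and 14 fell, with a median of 1.38, beside 39.4% higher and 37% lower over all features. Among oligo d(T)-selected libraries 9 rose and 29 fell among the repeat-linked, with a median of -0.93, and 50 rose and 15 fell among the others, with a median of 1.25, beside 39.3% and 37.7% of all features. In csl4-ph rRNA-depleted RNA the repeat-linked had 27 higher and 9 lower, with a median of 0.78, and the others 60 higher and 5 lower, with a median of 1.40, beside 35.4% and 41.1% of all features. Both kinds thus had positive medians in csl4-ph, and in srm1-ts the signs of the medians were opposite. These groups were described and not tested against each other.

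**Figure D4:**
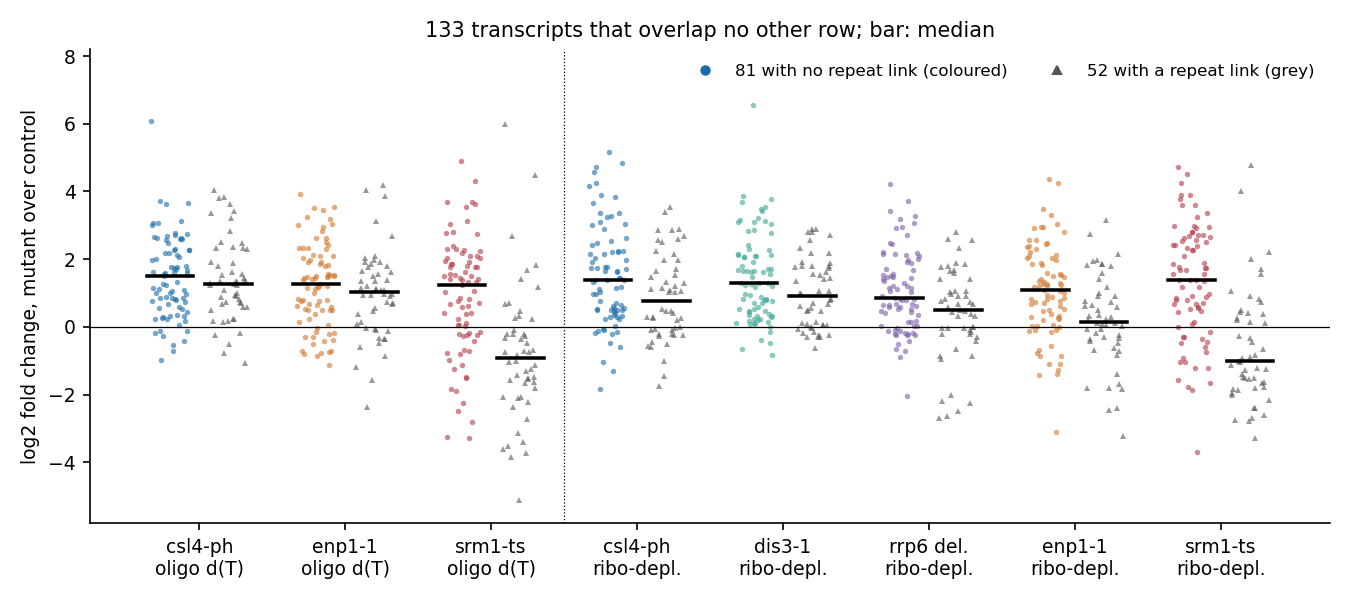
Log2 fold changes of the 133 transcripts that overlapped no other row, 1 point per transcript, in each mutant against control, with the median of each kind as a bar. Coloured points are the 81 with no repeat link and grey triangles the 52 with a repeat link. In srm1-ts the repeat-linked medians are -0.93 and -1.02, below 0, and the others 1.25 and 1.38.

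Per kb of span, the most abundant transcripts in control were repeat-linked. 4F-381, between SEC7 and HSP42, for which 32 further copies were found, had a control level of 27260 CPM per kb in rRNA-depleted RNA, 4R-336 in the same gap 4089, 2R-86 near PDR3 3769 and 7R-426 near the exportin gene CRM1 1010. 4F-381 stood at 7502, 7637 and 8228 CPM in csl4-ph, 7845 and 7418 CPM in dis3-1, 1623 and 1616 CPM in the rrp6 deletion, 8503 and 8936 CPM in enp1-1, 2178 and 2469 CPM in srm1-ts, and 9128 and 8975 CPM in control. It was low in the rrp6 deletion and srm1-ts alone and near control in the other groups. The log2 fold change was -2.48 ± 0.0658 in the rrp6 deletion (SE, adjusted p = 2.28e-09) and -1.96 ± 0.0645 in srm1-ts (adjusted p = 2.61e-09). 4R-336 and 2R-86 fell by 2.62 and 2.71 on the log2 scale in the rrp6 deletion, and by 1.22 and 1.03 in srm1-ts. Reads of copies that are nearly the same can be given to any of them, so the place these counts come from is uncertain.

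Selection changed the level of some of these in control cells, though less often than over all features. Oligo d(T)-selected against rRNA-depleted control libraries gave 66 transcripts higher and 76 lower of 447 tested, beside 31.5% and 25.9% of all features. 4F-381 averaged 1584 CPM in oligo d(T)-selected and 9007 CPM in rRNA-depleted control RNA, lower in oligo d(T)-selected RNA by a log2 fold change of -2.51 ± 0.0684 (SE, adjusted p = 4.81e-14). 2R-86 and 4R-336 were lower in oligo d(T)-selected RNA, with log2 fold changes of -3.15 and -3.05. 15R-430, 226 bases from TYE7, a regulator gene of glycolysis, averaged 62.54 CPM in oligo d(T)-selected and 12.04 CPM in rRNA-depleted control RNA, with a log2 fold change of 2.38 ± 0.0914 (adjusted p = 2.4e-12). The 2 selections were tables of separate libraries, and whether they came from the same cultures is not stated.

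**Figure D5:**
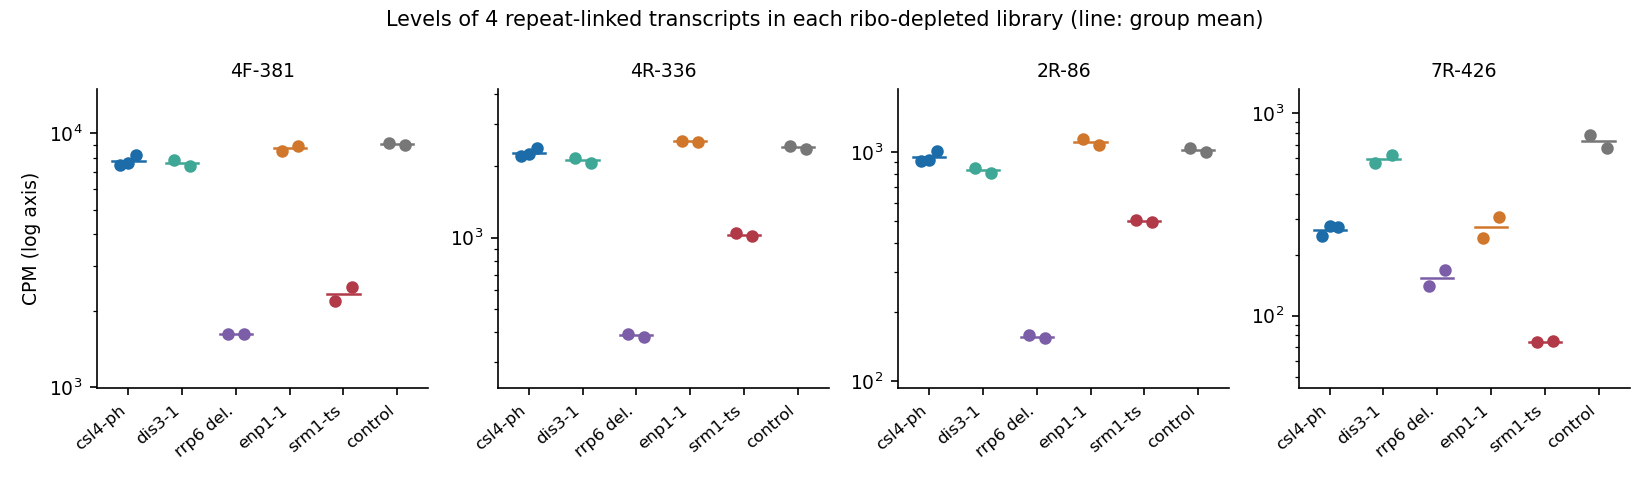
CPM on a log axis of 4 repeat-linked transcripts in rRNA-depleted RNA, by group, 1 point per library, with group means as lines. 4F-381 stood at 1623 and 1616 CPM in the rrp6 deletion and at 9128 and 8975 CPM in control, and 4R-336 and 2R-86 were lowest in the rrp6 deletion as well.

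The nuclease mutants were also set against enp1-1 and against each other in rRNA-depleted RNA. The control libraries take no part in these differences, and dis3-1 and enp1-1 have STE2 and LYS2 levels closer to each other than to control. The rrp6 deletion, with STE2 near its control level, differs in this marker from both. In LYS2, MF(ALPHA)1 and the marker gene MET17 it was far from control, at means of 455.9, 0.3967 and 0.7231 CPM, against 0.5413, 679.9 and 538.9 CPM. In dis3-1 against enp1-1, 139 transcripts were higher and 60 lower, beside 25.8% and 29.7% of all features. In the rrp6 deletion against enp1-1, 82 were higher and 116 lower, beside 30.5% and 31.7%. In dis3-1 against the rrp6 deletion, 126 were higher and 24 lower, beside 21.4% and 26.1%. 15F-14, a repeat-linked transcript 27 bases from the mannoprotein gene HPF1, stood at 158.6 and 153.3 CPM in dis3-1 and 17.91 and 18.48 CPM in the rrp6 deletion, a log2 fold change of 3.10 ± 0.0489 (adjusted p = 4.78e-10). The rrp6 deletion lay slightly below control, at 21.62 and 20.38 CPM (log2 fold change -0.21, adjusted p = 0.031). In the other direction 11F-298, beyond GEX2 near an end of chromosome XI, stood at 4.157 and 4.355 CPM in dis3-1, 13.25 and 13.06 CPM in the rrp6 deletion, 0.433 and 0.3717 CPM in enp1-1, and 3.675 and 3.971 CPM in control. The rrp6 deletion stood above control (log2 fold change 1.78, adjusted p = 3.12e-05), enp1-1 stood below it (log2 fold change -3.23, adjusted p = 5.94e-07), and dis3-1 against the rrp6 deletion gave -1.63 (adjusted p = 9.64e-05).

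Some changes depended on the selection as well as on the mutation, though in no mutant and direction more often than over all features. The csl4-ph change in oligo d(T)-selected RNA minus that in rRNA-depleted RNA was positive for 81 and negative for 93 of 447 tested transcripts, beside 27.7% and 27.1% of all features. For enp1-1 the counts were 96 and 64, beside 22.8% and 30.2%, and for srm1-ts 40 and 105, beside 22.5% and 27.7%. 14F-234, between ARK1 and YNL019C on chromosome XIV, stood at 159.9, 154.5 and 158.9 CPM in csl4-ph rRNA-depleted RNA, against 11.11 and 10.24 CPM in control. In oligo d(T)-selected RNA it stood at 18.92, 21.63 and 20.49 CPM in csl4-ph, against 11.57, 11.87 and 11.71 CPM in control. The rise was thus larger in rRNA-depleted RNA, and the difference of the log2 changes was -3.10 ± 0.111 (SE, adjusted p = 4.21e-12). 7R-426, which overlaps LTRs, went the other way: it stood at 380, 267.5 and 256.1 CPM in csl4-ph oligo d(T)-selected RNA, against 155.5, 150.3 and 122.9 CPM in control, and at 247, 277.1 and 273.4 CPM in csl4-ph rRNA-depleted RNA, against 780.3 and 669.8 CPM in control. It rose in one selection and fell in the other, a difference of 2.51 ± 0.212 (adjusted p = 7.17e-08).

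The 3′ tags were shallower, and 240 transcripts were tested. With the empty vector, 100 rose and 9 fell in csl4-ph, beside 32.2% and 15.4% of all features, and 74 rose and 7 fell in enp1-1, beside 25% and 13.9%. 16F-334, near the plasma membrane gene NCE102, overlaps other rows and stood at 123.2, 139.8 and 136 CPM in csl4-ph and 50.88, 32.79 and 39.25 CPM in enp1-1, against 11.19, 16.57 and 17.87 CPM in control. 2R-142, which overlaps no other row and lies between GIP1 and ZTA1, stood at 8.247, 11.4 and 8.908 CPM in csl4-ph and 13.12, 14.87 and 19.38 CPM in enp1-1, against 35.81, 34.98 and 31.14 CPM in control. It fell by 1.82 on the log2 scale in csl4-ph (adjusted p = 0.000208) and by 1.11 in enp1-1 (adjusted p = 0.0092).

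The vector with PAB1, the gene of the cytoplasmic poly(A) binding protein, was set against the empty vector within each strain. In csl4-ph and in control edgeR called 0 transcripts in either direction, beside 0.236% higher and 0.173% lower of all features in csl4-ph and 0.22% and 0.173% in control. At an unadjusted p under 0.05 there were 25 in csl4-ph and 35 in control, and DESeq2 called 2.38% higher and 4.76% lower of the transcripts it tested in csl4-ph and 3.82% and 0.637% in control. Shares of all features by these last criteria are not given here, so no excess among the transcripts can be read from them. In enp1-1, 2 were higher and 16 lower, beside 1.71% and 4.95% of all features. The 16 were 6.67% of the transcripts tested, and the share lower was 2.59% to 3.7% with any 1 of the 6 enp1-1 libraries left out and 1.69% with only the groups compared in the fit. 15F-331, a repeat-linked transcript that overlaps an ST row, stood at 15.75, 25.14 and 22.36 CPM with Pab1-GFP and 51.28, 49.19 and 51.17 CPM with the empty vector in enp1-1 (log2 fold change -1.24 ± 0.18, adjusted p = 0.000622). 15F-281, between SFL1 and ARP8, stood at 32.1, 41.9 and 36.88 CPM with Pab1-GFP and 73.54, 56.82 and 59.62 CPM with the empty vector in enp1-1 (log2 fold change -0.77 ± 0.148, adjusted p = 0.00637). That call was lost with only the groups compared in the fit (-0.66, adjusted p = 0.109). 13F-390, taken up here because it is described above, stood at 21.2, 15.42 and 13.73 CPM with Pab1-GFP and 35.77, 27.07 and 31.8 CPM with the empty vector in enp1-1 (log2 fold change -0.92 ± 0.224, adjusted p = 0.0209). Its call was lost without any 1 of 4 enp1-1 libraries (empty-vector replicates 1 and 3 and Pab1-GFP replicates 2 and 3), with log2 fold changes of -0.91 to -0.79 (adjusted p = 0.0531 to 0.104), without the filter on low counts (-0.85, adjusted p = 0.0623), and with only the groups compared (-0.81, adjusted p = 0.122). The 2 that rose, 13R-362 and 5F-117, did so by 0.59 and 1.23 on the log2 scale (adjusted p = 0.037 and 0.0396), and both lost the call when 1 of several libraries was left out, with 13R-362 at 0.50 (adjusted p = 0.116) without enp1-1 empty-vector replicate 1 and 5F-117 at 1.0 (adjusted p = 0.133) without enp1-1 empty-vector replicate 2. Both calls were also lost with a replicate block (adjusted p = 0.0503 and 0.0646) and with only the groups compared (adjusted p = 0.0683 and 0.0902). The span of 5F-117 overlaps that of another row, so its reads can be split.

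A few transcripts were absent from 1 group, and for these only a bound can be given, against a floor of 3 counts per library. 2F-118, whose span holds the snoRNA gene SNR161, averaged 90.63 CPM ± 8.7 in the rrp6 deletion and 44.09 CPM ± 1.18 in csl4-ph (SD, n = 2 and 3) and was at 0 in both control libraries of rRNA-depleted RNA, at least 318-fold and at least 155-fold higher. 7F-213 was at least 124-fold higher in csl4-ph, 4F-253 at least 148-fold in dis3-1 and 2F-141 at least 160-fold in srm1-ts. 15F-444 was at 0 in dis3-1 and averaged 3.823 CPM ± 1.54 in control (SD, n = 2), at least 18.8-fold lower. Each of these overlaps rows of other transcript sets, so that a 0 can also be a count given to the other row.

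The genes that degrade or end such transcripts were followed in lists chosen by function. Of 10 exosome core genes, 1 was higher and 7 lower in csl4-ph rRNA-depleted RNA, 1 and 7 in dis3-1, 5 and 1 in the rrp6 deletion, 2 and 7 in enp1-1, and 1 and 8 in srm1-ts. Of 8 nuclear cofactor genes, 3 were higher and 4 lower in csl4-ph, and 5 higher and 1 lower in the rrp6 deletion. TRF5, singled out after its values were seen, is a poly(A) polymerase gene of the TRAMP complex that marks RNA for the nuclear exosome. Its row overlaps 2 other rows, so reads can be split between them. It rose in all 5 mutants in rRNA-depleted RNA, with log2 fold changes of 4.33 in csl4-ph, 3.56 in dis3-1, 3.39 in the rrp6 deletion, 4.18 in enp1-1 and 4.48 in srm1-ts. Of the 4 Nrd1 pathway genes, 1 was higher and 2 lower in csl4-ph, and 3 higher and 1 lower in srm1-ts. The row of NRD1 itself overlaps 1 other row and was at 0 CPM in both csl4-ph and control in rRNA-depleted RNA, so its counts can have been given to the other row. The srm1-ts calls take in all 4 genes, NRD1 included. With oligo d(T) selection the NRD1 row averaged 583.5 CPM in srm1-ts, against 0.4439 CPM in control, in the joint fit. Whether counts moved between the overlapping rows was not tested. Of 14 cytoplasmic decay genes, 0 were higher and 11 lower in csl4-ph, and 5 higher and 7 lower in srm1-ts. The background shares of called features are those given above for the same comparisons.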

How the data were processed

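Oligo d(T)-selected RNA (10 libraries), rRNA-depleted RNA (13) and 3′ tags (18) were measured, 41 libraries in all. Trimmomatic (0.38 and 0.39) and Salmon 0.12.0 are named in the submitters' processing notes, as are bedtools, DESeq, DESeq2 1.26.0 and the build sacCer3 (R64). The authors deposited estimated counts per feature and library. Per the labels' protocols the kit of the first 2 tables was stranded; whether counting used strand, and how overlapping rows or copies were treated, is not given in the sources used here. Feature spans were set against the RefSeq R64 annotation, and copies were searched with blastn 2.17.0.

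For testing, the deposited estimated counts were rounded. Comparisons used 2-sided edgeR 4.0.16 quasi-likelihood F-tests (R 4.3.3) with TMM (trimmed mean of M-values) normalization, the filter on low counts by group, all groups of a table in 1 fit and, for the 2 selections, 23 libraries in 1 fit. Of all rows, 10464, 10564, 6369 and 10790 passed the filter in oligo d(T)-selected RNA, rRNA-depleted RNA, 3′ tags and the joint fit. A call needed an adjusted p under 0.05 (Benjamini-Hochberg, over every feature tested), and the fits were tested on simulated data. CPM values are TMM-scaled, log2 fold changes come from the fit, SE belongs to a fold change and SD to levels. Labels do not say that replicates are separate cultures, so p-values measure the spread between these libraries, which may be technical. No 2 libraries were identical (0 pairs). Alternatives were median-ratio size factors, TMM on ORF rows, no filter, DESeq2 1.42.0, a replicate block, only the groups compared, each library left out, and only isolated or repeat-free transcripts.

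The transcripts, gene lists and tests were chosen with earlier results of these data known. Named transcripts were those that overlap no other row, were called, reached 3 CPM in 1 group and had groups that did not overlap, taking the 5 largest rises and 3 largest falls per mutant, with the 3 and 2 largest among all 508, the 5 highest per kb in control, those higher in all 8 mutant comparisons or in exosome mutants alone, and the 3 smallest adjusted p per direction in the interactions and 3′ tags. From these the text takes the ones that add to the account.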

Additional observations from a re-analysis of the deposited data

Results flagged for a closer look

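Transcripts whose change in a mutant differed between oligo d(T)-selected and rRNA-depleted RNA, by a test of the difference itself, are listed here by their value. The counts past an adjusted p under 0.05 were 81 higher and 93 lower of 447 for csl4-ph, beside 27.7% and 27.1% of all features. They were 96 higher and 64 lower for enp1-1, beside 22.8% and 30.2%, and 40 higher and 105 lower for srm1-ts, beside 22.5% and 27.7%. As a share of the 447 tested, each count lay below the share of all features.

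For csl4-ph the log2 change in oligo d(T)-selected RNA minus that in rRNA-depleted RNA was 1.98 for 3R-54, 2.51 for 7R-426 and 1.38 for 16F-324, and it was -3.10 for 14F-234, -1.84 for 15F-14 and -1.80 for 9F-2. 3R-54 and 7R-426 overlap LTRs, and 15F-14 and 9F-2 each have 1 further copy in the assembly, so their place of origin is uncertain. 3R-54 and 16F-324 also overlap rows of the feature set, so their reads can be split between rows.

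For enp1-1 the difference was 2.54 for 3R-54, 3.17 for 7R-426 and 1.30 for 5R-211, and it was -1.14 for 15R-430, -7.58 for 14R-219 and -0.93 for 14F-234. 7R-426 stood at 460.3 and 526.3 CPM in enp1-1 oligo d(T)-selected RNA, against 155.5, 150.3 and 122.9 CPM in control, and at 241.3 and 306.6 CPM in enp1-1 rRNA-depleted RNA, against 780.3 and 669.8 CPM in control. The value of 14R-219 rests on a group at 0 counts and is no bound. 14R-219 overlaps another row, so that a 0 can also be a count given to that row.

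For srm1-ts the difference was 1.19 for 16F-324, 1.19 for 14F-39 and 1.05 for 3F-78, and it was -3.54 for 14F-234, -10.82 for 10R-197 and -2.23 for 12R-370. 14F-234 stood at 1.925 and 1.405 CPM in srm1-ts oligo d(T)-selected RNA, against 11.57, 11.87 and 11.71 CPM in control, and at 16.58 and 17.37 CPM in srm1-ts rRNA-depleted RNA, against 11.11 and 10.24 CPM in control. The value of 10R-197 rests on a group at 0 counts and is no bound. 10R-197 overlaps another row, so that a 0 can also be a count given to that row.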

How the results depend on the processing

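Values are percents of tested transcripts called higher or lower, csl4-ph, enp1-1 and the like standing for the mutant against control, and no direction of a named transcript reversed under any alternative run. For the sets that overlap no other row or are repeat-free, the shares of all features are those given above for the same comparisons. For the other settings such shares are not listed here, so these percents describe the transcripts alone. With only transcripts that overlap no other row, lower calls were 6.02% in csl4-ph oligo d(T)-selected RNA and 10.5% in csl4-ph, 17.3% in enp1-1, 33.8% in srm1-ts and 13.5% in the rrp6 deletion in rRNA-depleted RNA, calls higher for the csl4-ph selection difference 28.6%, lower calls between selections in control 31.6%, and higher calls for Pab1-GFP in enp1-1 1.49%. With only repeat-free transcripts, lower calls were 14.6% in srm1-ts oligo d(T)-selected RNA and 4.13% in csl4-ph, 5.01% in enp1-1, 11.5% in srm1-ts and 5.31% in the rrp6 deletion in rRNA-depleted RNA, with 0 higher for Pab1-GFP in enp1-1. Scaling on ORF rows gave lower calls of 2.36% in csl4-ph oligo d(T)-selected RNA, 3.23% in csl4-ph and 1.15% in dis3-1 rRNA-depleted RNA and 1.67% in csl4-ph 3′ tags, and median-ratio factors 2.76% in dis3-1. DESeq2 gave lower calls of 3.91% in csl4-ph rRNA-depleted RNA and 1.79% in enp1-1 3′ tags, and for Pab1-GFP 2.38% higher and 4.76% lower in csl4-ph, 2.12% and 11.9% in enp1-1 and 3.82% and 0.637% in control. Fitting only the groups compared gave lower calls of 3.93% in csl4-ph and 2.38% in dis3-1 rRNA-depleted RNA and 5.85% in csl4-ph 3′ tags, 8.52% lower for the enp1-1 and 5.71% higher for the srm1-ts selection difference, 7.96% higher between selections in control, and for Pab1-GFP 0 higher and 1.69% lower in enp1-1 and 2.86% higher in control. Without the low-count filter, 3′ tags gave 23.4% higher in csl4-ph, 14.9% higher and 1.49% lower in enp1-1, and 0.213% higher and 1.91% lower for Pab1-GFP in enp1-1. The labels do not say whether same-numbered libraries were paired. Deviations of same-numbered libraries had correlations of -0.238 to 0.317. In groups of 2 libraries the deviations mirror each other, so these values cannot settle pairing. With the replicate block 66% rose in csl4-ph oligo d(T)-selected RNA and 57.1% in rRNA-depleted RNA, while Pab1-GFP in enp1-1 had 0.417% higher, the count that moved by over 1.5 times.

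Leaving out each library in turn, the percent higher and then lower ranged over 65 to 69.1 and 2.82 to 4.49 in csl4-ph, 48.5 to 58.5 and 5.87 to 7.31 in enp1-1, and 34.6 to 44.3 and 17.8 to 20.8 in srm1-ts oligo d(T)-selected RNA. In rRNA-depleted RNA they were 56.7 to 60 and 4.24 to 6.25 in csl4-ph, 52.2 to 54.9 and 2.9 to 4.03 in dis3-1, 40.9 to 44.6 and 7.14 to 7.4 in the rrp6 deletion, 42.8 to 47.8 and 7.37 to 8.74 in enp1-1, and 43.2 to 46.7 and 13.7 to 15.4 in srm1-ts. Between mutants they were 20.8 to 26.5 and 10.3 to 10.7 for dis3-1 against enp1-1, 14.1 to 16.1 and 20.6 to 23.3 for the rrp6 deletion against enp1-1, and 21.2 to 22.8 and 4.03 to 4.47 for dis3-1 against the rrp6 deletion. For the selection differences they were 14.6 to 19.5 and 16.8 to 20.4 in csl4-ph, 16.3 to 21.1 and 10.7 to 13.9 in enp1-1, 6.54 to 9.89 and 20.5 to 24.3 in srm1-ts, and 11.5 to 14.5 and 12.9 to 17.5 between selections in control. In 3′ tags they were 31.9 to 38.6 and 1.5 to 6.27 in csl4-ph and 20.4 to 25.9 and 1.11 to 4.07 in enp1-1, and for Pab1-GFP 0 to 0.781 and 0 to 1.56 in csl4-ph, 0 to 0.741 and 2.59 to 3.7 in enp1-1, and 0 to 0.37 and 0 to 0.37 in control. Where a group is left with 1 library, it is assumed to vary like the other groups. Causes of these changes were not tested. Depth limits the 3′ tags most, where a floor of 3 counts reaches 1.945 CPM.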
